A study of Mus musculus with 6 samples.

Results

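The genes that load peptides onto major histocompatibility complex (MHC) class I molecules were followed across the bulk RNA-seq libraries of the mouse prostate. The set holds 10 of the 24908 genes of the expression table: B2m, H2-K1, H2-D1, Tap1, Tap2, Tapbp, Psmb8, Psmb9, Psmb10 and Nlrc5. The table writes gene symbols in capitals (B2M, TAP1, TAP2, TAPBP, PSMB8, PSMB9, PSMB10, NLRC5), and all 10 were found. They were chosen by symbol with their values in these libraries already known, among them a lower B2m in MYC DLP and VP, so every level and ratio of MYC to WT below is a description and not a test. The libraries come from FVB mice of 12 weeks on a purified diet. The MYC mouse was heterozygous for a human c-MYC transgene under the ARR2Pb promoter, which is active in prostate epithelium, and the WT mouse was its littermate. The anterior (AP), dorsolateral (DLP) and ventral (VP) prostate of each mouse were dissociated with enzymes to a cell suspension, and RNA of each suspension gave 1 library, 6 in all. With 1 mouse per genotype, genotype and mouse cannot be told apart, and no p-value can be given.

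MHC class I molecules show fragments of a cell's own proteins to CD8 T cells. Proteins are cut by the proteasome, in which the inducible subunits Psmb8, Psmb9 and Psmb10 can take the places of Psmb5, Psmb6 and Psmb7. The transporter made of Tap1 and Tap2 carries the peptides into the endoplasmic reticulum. There tapasin (Tapbp), calreticulin (Calr) and the disulfide isomerase Pdia3 hold the heavy chain (H2-K1 or H2-D1) with its light chain beta-2 microglobulin (B2m) until a peptide is bound. Interferons induce most of these genes, and Nlrc5 is a transactivator that acts at conserved X and Y boxes of class I promoters together with RFX, CREB/ATF and NF-Y proteins.

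The sequence before a gene start is shown for the heavy chains, for B2m and for the Tap1 and Psmb9 pair, because these members did not change alike. Sequences are from RefSeq on GRCm38.p6, the assembly also known as mm10, which the submitters' processing notes name. Each runs 5′ to 3′ on the strand of the gene named. RefSeq gives several starts for H2-K1. Its stretch stands before a start at 34000333, inside the span of the gene given below, and ends 15 bases before it because another start lies nearby. Capitals mark matches, on either strand, to TGACG (the half-site of CREB/ATF proteins), CCAAT (the box bound by NF-Y), AANNGAAA (a core of the interferon-stimulated response element) and GGGATTCCC (an NF-kappaB site).
B2m, + strand, chr2:122147517-122147686: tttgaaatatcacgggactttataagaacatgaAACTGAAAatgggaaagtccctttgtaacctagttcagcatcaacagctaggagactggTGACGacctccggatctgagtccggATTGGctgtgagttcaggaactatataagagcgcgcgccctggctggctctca
H2-K1, - strand, chr17:34000348-34000483: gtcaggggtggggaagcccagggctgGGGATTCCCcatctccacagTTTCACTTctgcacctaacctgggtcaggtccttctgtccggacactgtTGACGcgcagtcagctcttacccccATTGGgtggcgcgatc
H2-D1, + strand, chr17:35262914-35263093: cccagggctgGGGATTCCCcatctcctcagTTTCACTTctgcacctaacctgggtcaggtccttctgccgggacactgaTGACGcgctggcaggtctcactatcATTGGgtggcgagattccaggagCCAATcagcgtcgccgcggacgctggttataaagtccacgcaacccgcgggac
Tap1, + strand, chr17:34187331-34187555: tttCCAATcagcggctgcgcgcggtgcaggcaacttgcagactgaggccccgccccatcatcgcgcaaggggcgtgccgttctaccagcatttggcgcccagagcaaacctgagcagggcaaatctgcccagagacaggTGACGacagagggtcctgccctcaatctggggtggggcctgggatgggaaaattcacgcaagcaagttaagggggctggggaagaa

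The Tap1 stretch is the whole of the 225 bases between the starts of Psmb9, which is transcribed the other way, and Tap1. A promoter entry was found for 8 of the 10 members, all but Tap2 and Nlrc5. In the 250 bases before the start, TGACG and CCAAT occurred together in 5 of these 8, B2m, H2-K1, H2-D1, Tap1 and Psmb9, and in 6.12% of all 32851 mouse promoters of the same length. Tap1 and Psmb9 share the same matches, since their windows overlap. TGACG alone was present in 17.8% of all promoters, CCAAT in 33.8% and AANNGAAA in 21.3%, the last also in B2m, H2-K1 and H2-D1. GGGATTCCC was found in H2-K1 and H2-D1, which share a run of 47 identical bases around it, and in 0.301% of all promoters. The E box CACGTG, a sequence that MYC with MAX can bind, was present in Psmb10 alone of the 8 and in 6.02% of all promoters. B2m, whose RNA differed from the heavy chains in direction, held matches to TGACG as well as to CCAAT and to the interferon-response core, as they do. These matches describe letters in the C57BL/6J reference, not binding, and overlaps between the motifs were counted once for each motif.

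**Figure D1:**
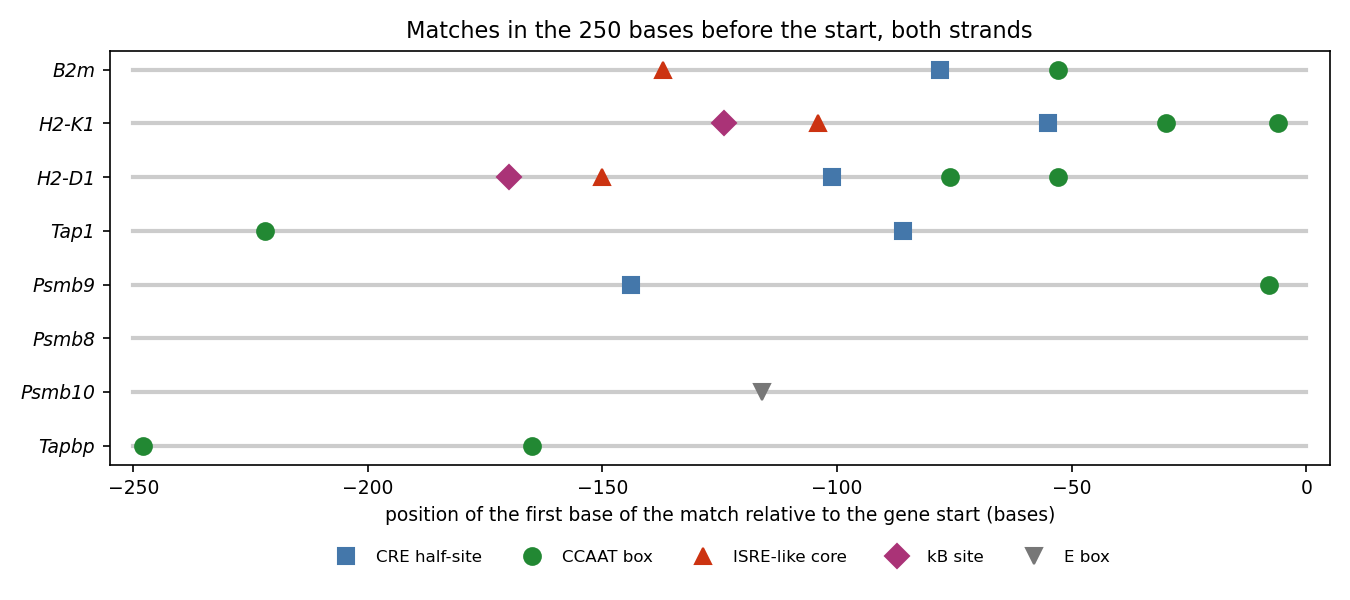
Matches to 5 motifs in the 250 bases before the start of the 8 members with a promoter entry. The horizontal axis is the position of the first base of a match relative to the gene start, in bases, and each symbol is 1 match; B2m, H2-K1 and H2-D1 hold an interferon-response core, a CRE half-site and a CCAAT box in the same order.

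Of the members, 7 lie on chromosome 17 within the MHC, from Tapbp (33919478 to 33929290 in GRCm38.p6) and H2-K1 (33996012 to 34000619) to H2-D1 (35263094 to 35267497), a span of 1348 kb. Psmb9, Tap1, Psmb8 and Tap2 sit side by side in 34.3 kb (34182030 to 34216321). B2m lies on chromosome 2 (122147687 to 122153082), and Psmb10 (105935728 to 105938392) and Nlrc5 (94434335 to 94527272) on chromosome 8.

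Levels are FPKM, fragments scaled by transcript length and by mapped reads, as deposited. Between 25.5 M (WT AP) and 50.2 M (MYC AP) mapped reads per library were recovered from steps in the FPKM of genes with 1 exon. Reads behind a member ranged from about 33 (Nlrc5 in WT VP) to about 147576 (B2m in WT DLP). Ratios of MYC to WT carry a 95% exact interval (Clopper-Pearson) from these estimated reads, which covers counting error of the libraries and nothing between mice. The log2 ratio is log2 of (FPKM + 1) in MYC over (FPKM + 1) in WT, which understates the change of a low gene such as Nlrc5, and a gene was called at 2-fold on this scale. All 10 members passed the filter of a mean of 1 FPKM, as did 12361 genes in all. The luminal keratins Krt8 and Krt18 were high in every library, between 387.9 and 1611 FPKM. Seminal vesicle genes were nearly confined to MYC AP, where Svs4 had 292.5 FPKM and Svs5 had 212.0 FPKM, both being at 0 in WT AP. The AP libraries thus differed in these genes too, and what this means for the ratios of MYC to WT in AP was not tested. The Myc row of the table, which may also hold reads of the human transgene, had 200.6 to 230.0 FPKM in the WT libraries. It had 586.1 FPKM in MYC DLP and 1696 FPKM in MYC VP, while MYC AP had 230.9 FPKM beside 230.0 FPKM in WT AP.

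FVB mice carry the q haplotype of the MHC, while the mouse reference genome is that of C57BL/6, of haplotype b. Reads of the polymorphic H2-K1 and H2-D1 may therefore have been lost or assigned to a related gene. Within reference transcripts, 1.22% of the 75-base windows of H2-K1 and 5.56% of those of H2-D1 also occurred in another gene, mostly of the Q and T class I genes. No window of the other members with transcripts in that set was shared, and Nlrc5 was not in it. Levels of the heavy chains are thus less certain than those of the other members, in both genotypes.

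B2m, the light chain that all class I heavy chains need to reach the cell surface, was the most abundant member and the one member that was lower in MYC by over 1.9-fold in any lobe. WT AP held 2521 FPKM and MYC AP 2560 FPKM. Its level was 4736 FPKM in WT DLP against 2385 FPKM in MYC DLP, and 2880 against 1113 FPKM in VP. The AP libraries were thus alike, WT DLP stood above the other 5 and MYC VP below them. MYC had 0.504 of the WT level in DLP (interval 0.499 to 0.509) and 0.387 in VP (0.382 to 0.392), against 1.02 in AP (1.0 to 1.03). On the log2 scale the ratio was 0.02 for AP, -0.99 for DLP and -1.37 for VP. The DLP value lies just short of the 2-fold threshold, and it passed it under each of the 4 other scalings of the libraries, with values from -1.04 to -1.22. Among all genes compared, 3.43% had a lower log2 ratio than B2m in DLP and 2.60% in VP. B2m ranked 6th of all genes by FPKM in WT DLP and 10th in WT VP, and 16th and 83rd in the MYC libraries of these lobes.

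The heavy chains did not follow their light chain. H2-K1 had 301.7 and 346.1 FPKM in WT and MYC AP, 270.8 and 495.7 FPKM in DLP, and 212.2 and 285.5 FPKM in VP. H2-D1 had 586.2 and 664.4 FPKM in AP, 494.5 and 881.1 FPKM in DLP, and 376.7 and 593.2 FPKM in VP. Both were higher in MYC in each lobe and under each of the 4 other scalings and with a pseudocount of 0.1, and neither reached 2-fold in any lobe. With FPKM as deposited, the ratio of MYC to WT was largest in DLP, 1.83 for H2-K1 (1.79 to 1.88) and 1.78 for H2-D1 (1.75 to 1.81), and in VP it was 1.35 (1.31 to 1.38) and 1.57 (1.54 to 1.61). Against Krt8 and Krt18 both were larger in VP than in DLP, with log2 ratios of 0.69 and 0.64 for H2-K1 and 0.92 and 0.60 for H2-D1. The proportion of the heavy chains to each other moved little, with 1.77 to 2.08 FPKM of H2-D1 for each FPKM of H2-K1.

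Set against each other within a library, heavy and light chain RNA changed their proportion in DLP and VP more than either heavy chain or B2m changed its own level. The sum of H2-K1 and H2-D1 came to 35.2% of the FPKM of B2m in WT AP and 39.5% in MYC AP. It was 16.2% in WT DLP and 57.7% in MYC DLP, and 20.4% in WT VP and 78.9% in MYC VP. B2m RNA exceeded the sum of these 2 heavy chains in all 6 libraries. In MYC VP, where that sum was 878.7 FPKM and B2m 1113 FPKM, the other genes listed as B2m partners added 287.5 FPKM, so that B2m did not exceed all of its listed partners there. As a ratio within a library, this proportion does not depend on how the libraries are scaled.

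**Figure D2:**
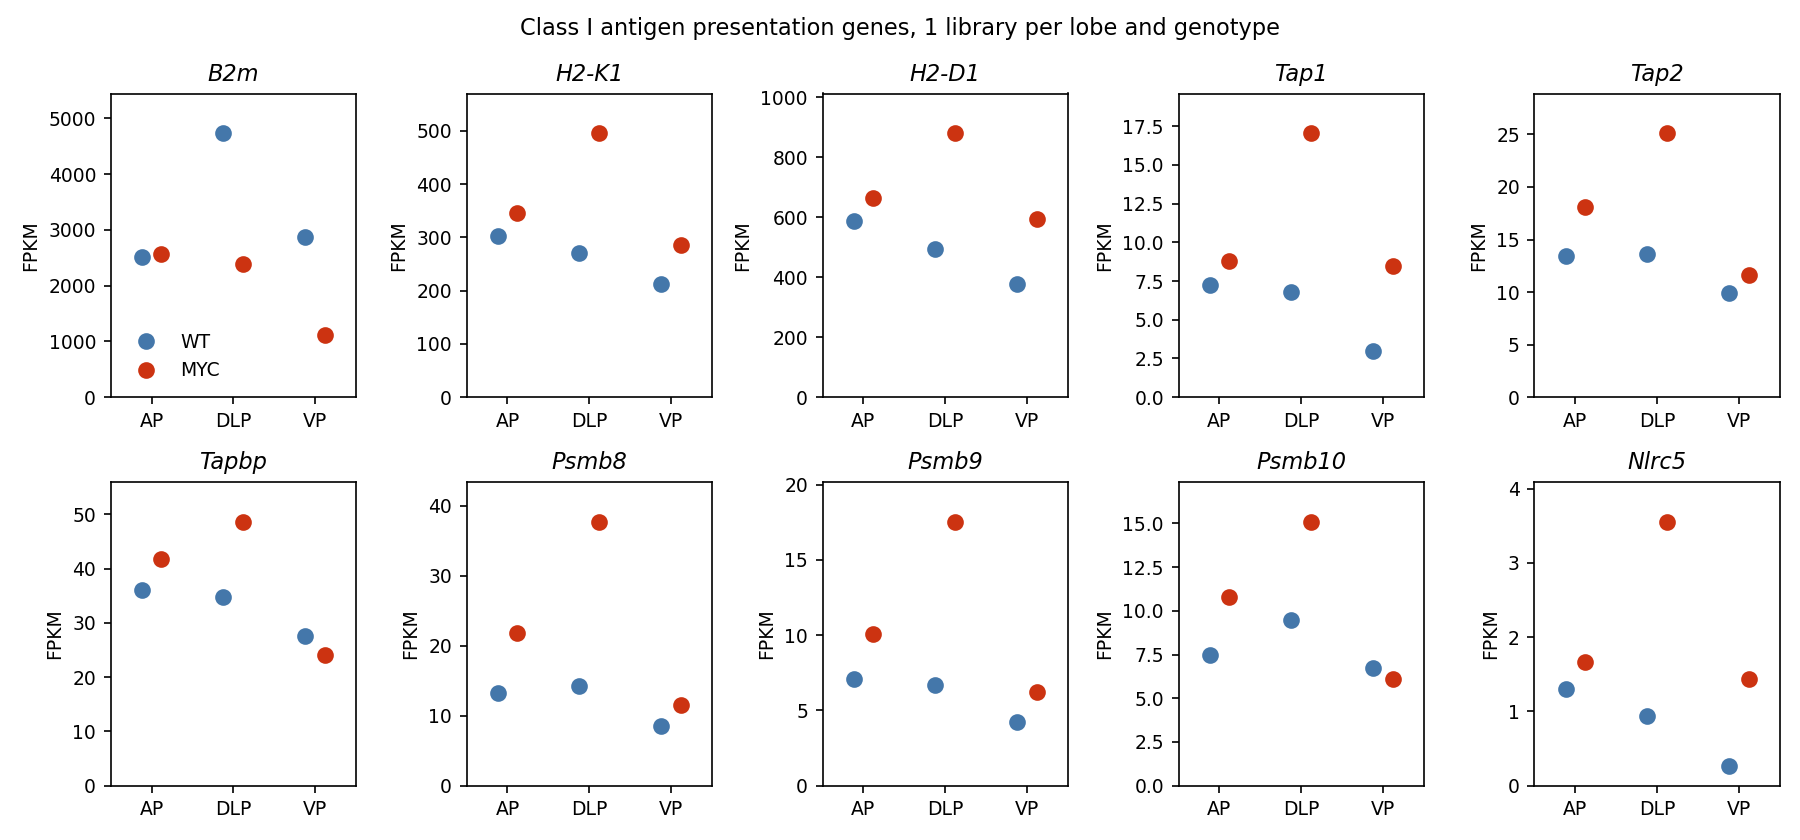
FPKM of each of the 10 members in AP, DLP and VP, 1 point per library (blue, WT; red, MYC), each panel from 0 on its own scale. MYC DLP is the highest library for the 9 members other than B2m, while B2m is highest in WT DLP (4736 FPKM) and lowest in MYC VP (1113 FPKM).

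Of the peptide transporter, Tap1 moved more than Tap2. Tap1 had 7.23 and 8.80 FPKM in WT and MYC AP, 6.80 and 17.1 FPKM in DLP, and 2.99 and 8.47 FPKM in VP. It was called higher in MYC in DLP (2.51-fold, 2.29 to 2.76) and in VP (2.83-fold, 2.48 to 3.23), and in AP the ratio was 1.22 (1.08 to 1.37). Its log2 ratio in DLP went from 1.21 to 0.98 when set against Krt8 and Krt18. Tap2, which forms the transporter with it, had 13.4 and 18.1 FPKM in AP, 13.6 and 25.1 FPKM in DLP, and 9.87 and 11.6 FPKM in VP. Its log2 ratios were 0.41, 0.84 and 0.21, and the last fell to -0.04 under the lowest of the other settings. The level of Tap1 per FPKM of Tap2 was 0.303 in WT VP, the lowest of the libraries, and 0.731 in MYC VP, the highest. Tapbp, which bridges the transporter and the heavy chain, had 36.1 and 41.8 FPKM in AP, 34.8 and 48.7 FPKM in DLP, and 27.6 and 24.2 FPKM in VP. It was the member with the smallest log2 ratio above 0 in DLP (0.47), and its -0.19 in VP became 0.08 when set against Krt8 and Krt18.

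The inducible proteasome subunits were higher in MYC DLP, and less so in AP. In VP Psmb8 and Psmb9 were higher as well, by 1.34-fold (1.19 to 1.51) and 1.47-fold (1.21 to 1.78), and Psmb10 was not. Psmb8 had 13.3 and 21.8 FPKM in WT and MYC AP, 14.2 and 37.8 FPKM in DLP, and 8.59 and 11.5 FPKM in VP. Psmb9 had 7.11 and 10.11 FPKM in AP, 6.68 and 17.5 FPKM in DLP, and 4.26 and 6.25 FPKM in VP. Both were called higher in DLP, by 2.65-fold (2.44 to 2.88) and 2.63-fold (2.28 to 3.05). Psmb10 had 7.46 and 10.8 FPKM in AP, 9.50 and 15.1 FPKM in DLP, and 6.75 and 6.13 FPKM in VP. Its ratio was 1.59 in DLP (1.40 to 1.80) and 0.908 in VP, where the interval of 0.773 to 1.07 holds 1 and the sign of the log2 ratio turned when set against Krt8 and Krt18. Psmb8 in AP, at 1.64-fold (1.47 to 1.84), was the largest difference of any member in that lobe and was higher than 94.7% of all genes compared there.

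The subunits that these replace differed little, with log2 ratios between -0.19 and 0.45 for Psmb5, Psmb6 and Psmb7 in the 3 lobes. Psmb8 made up 28.2% of the summed FPKM of Psmb8 and Psmb5 in WT DLP and 47.1% in MYC DLP, against 20.1% and 21.2% in VP and 39.7% and 44.4% in AP. For Psmb9 with Psmb6 the shares were 6.96% and 17.9% in DLP, 4.65% and 7.56% in VP, and 9.70% and 13.1% in AP. Psmb10 with Psmb7 went from 13.7% to 18.3% in DLP and from 13.2% to 16.0% in AP, and in VP from 10.7% to 7.30%. The 3 inducible subunits therefore held a larger share in MYC DLP than in any other library, and in VP they did not move together.

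**Figure D3:**
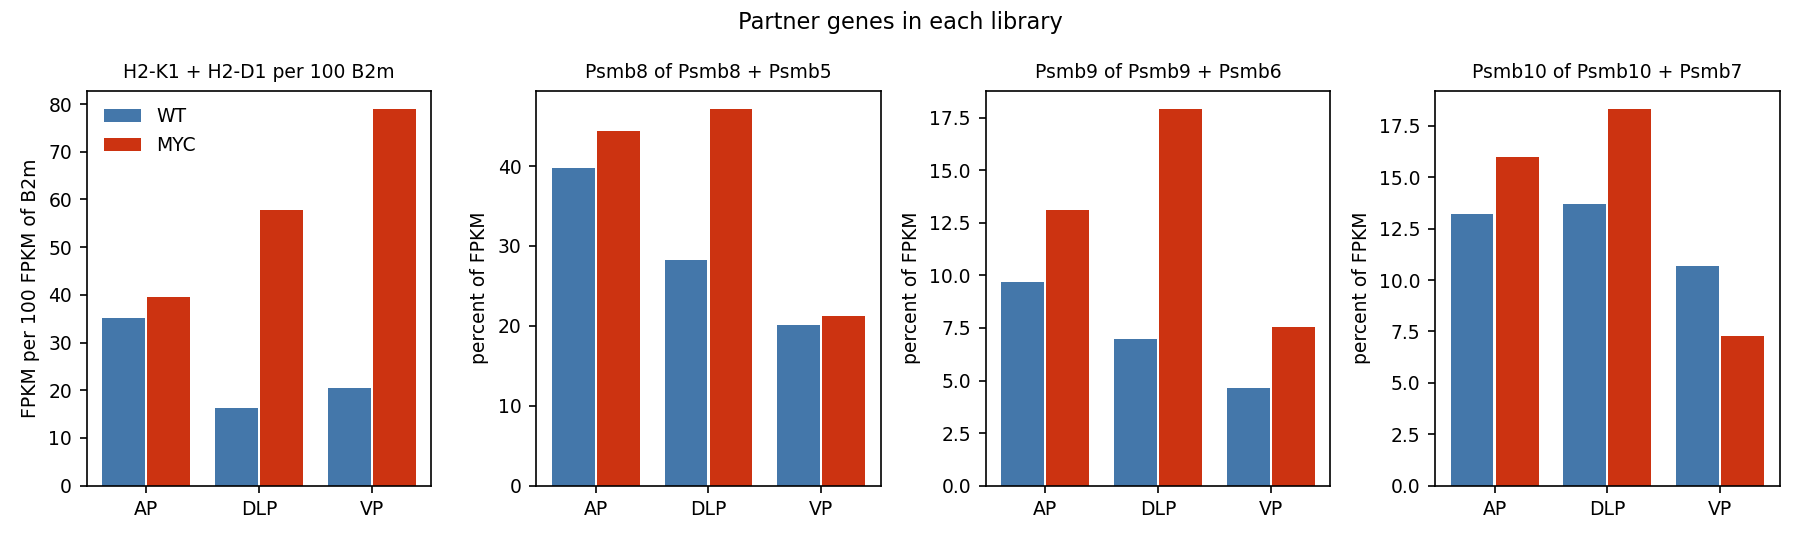
Proportions of partner genes within each library (blue, WT; red, MYC; bars from 0). Left, FPKM of H2-K1 plus H2-D1 as a percent of that of B2m, which reaches 78.9% in MYC VP; the other panels give the percent of each inducible subunit in the sum with its constitutive counterpart, highest in MYC DLP.

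Nlrc5, the transactivator of class I genes, was the lowest member and had the widest range, 13.7-fold from the lowest to the highest library. It had 1.31 and 1.67 FPKM in WT and MYC AP, 0.942 and 3.55 FPKM in DLP, and 0.260 and 1.43 FPKM in VP. The ratio of its FPKM was 3.77 in DLP (3.04 to 4.72) and 5.51 in VP (3.77 to 8.32), and in AP the interval of 0.989 to 1.66 holds 1. Its log2 ratio passed the threshold in DLP (1.23) and not in VP (0.95), where a pseudocount of 0.1 in place of 1 gave 2.09. Set against Krt8 and Krt18 the calls were exchanged. The log2 ratio of Nlrc5 was then just short of the threshold in DLP (1.0 after rounding) and past it in VP (1.21). The reads behind these intervals were estimated from partial gene models with a mean of 2760 bases, so that its read numbers are the least certain of the members.

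Counted over the set, 4 of the 10 members were at least 2-fold higher in MYC DLP (Tap1, Psmb8, Psmb9 and Nlrc5), against 6.46% of all genes compared, and none was 2-fold lower, against 3.39%. In VP 1 member was higher (Tap1; 6.88% of all genes) and 1 lower (B2m; 5.95%). In AP no member was higher (2.05% of all genes) or lower (0.599%). Since the members were chosen with these values known, nothing is read from these shares. The split of all genes into higher and lower moves with the scaling: in VP 53.6% of the genes past 2-fold were higher with FPKM as deposited, 33.8% with equal sums of FPKM, 31.1% with equal sums without the 20 highest genes and 78.3% against Krt8 and Krt18. In DLP the share was 65.6% as deposited, 54.2% without the 20 highest genes and 43.0% against Krt8 and Krt18. In AP it was 77.4%, 59.9% with median-of-ratios size factors and 90.2% against Krt8 and Krt18. Over the members the median log2 ratio in AP was 0.23, beside 0.13 over all genes. It was 0.85 in DLP, beside 0.03, and 0.40 in VP, beside 0.04.

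**Figure D4:**
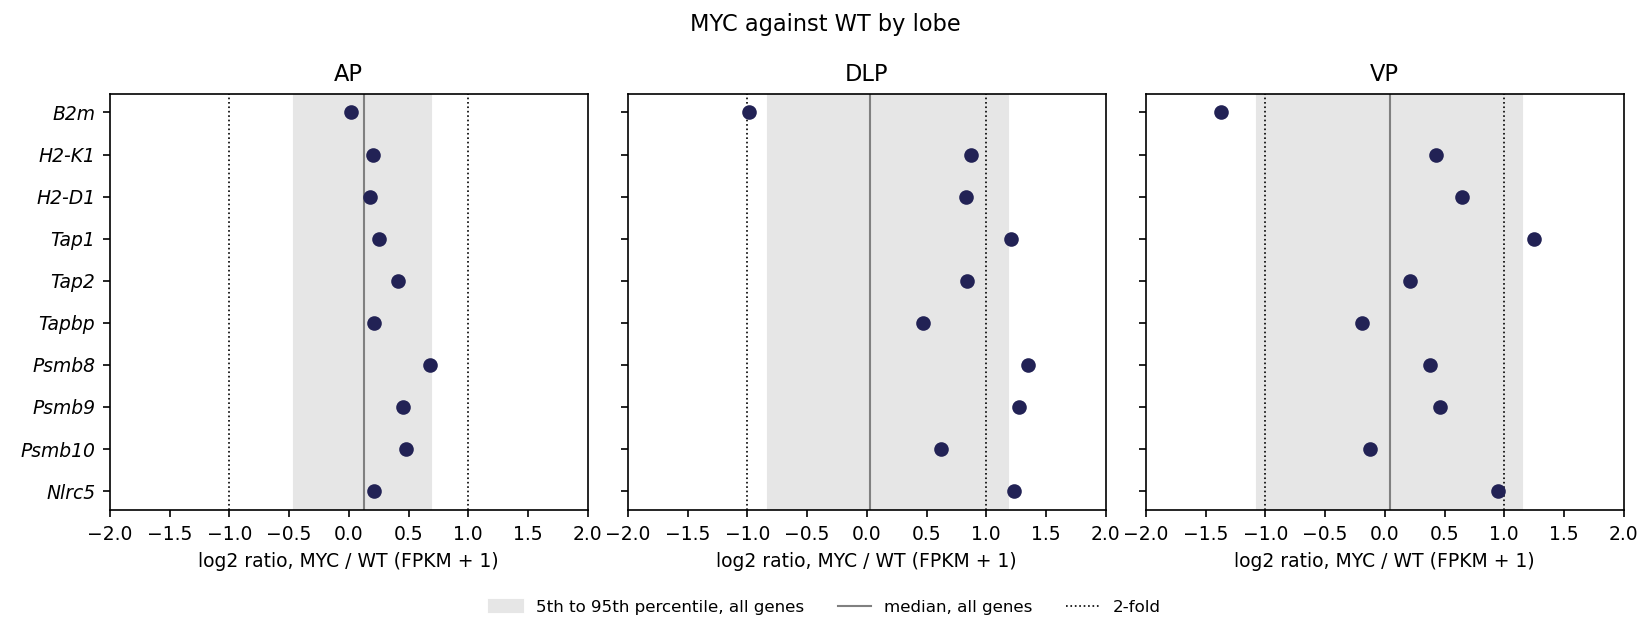
log2 ratio of MYC to WT on the FPKM + 1 scale for each member, by lobe. Points are members, the grey band spans the 5th to 95th percentile of all 12361 genes (from -0.83 to 1.18 in DLP), the grey line is their median and dotted lines mark 2-fold; B2m lies below the band in DLP and VP.

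Across the lobes of 1 mouse, the 9 members other than B2m shared an order in FPKM as deposited. VP was the lowest of the 3 WT libraries for all 9, and the lowest of the 3 MYC libraries for all 9. MYC DLP was the highest of the 6 libraries for all 9, and their log2 ratio was larger in DLP than in AP for 9 and than in VP for 8, Tap1 being the exception. The order of DLP and VP depends on the setting: with a pseudocount of 0.1 Nlrc5 was larger in VP too (2.09 against 1.81 in DLP), and against Krt8 and Krt18 so were Nlrc5, H2-K1 and H2-D1, which leaves 5 of 9 larger in DLP. Against Krt8 and Krt18 Tapbp and Psmb10 were larger in AP than in DLP, which leaves 7 of 9. Between WT AP and WT DLP the levels were close, with DLP at 0.722 (Nlrc5) to 1.27 (Psmb10) of AP. From WT VP to WT AP the step was 1.11 for Psmb10, 1.31 to 1.67 for H2-K1, H2-D1, Tap2, Tapbp, Psmb8 and Psmb9, 2.42 for Tap1 and 5.03 for Nlrc5. B2m had another order, with DLP at 1.88 times AP and 1.64 times VP in the WT mouse, and DLP at 0.932 of AP and 2.14 times VP in the MYC mouse. None of these steps between lobes has a replicate.

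The genes whose levels were most like those of a member were named by Pearson's correlation of log2(FPKM + 1) over the 6 libraries, among the 5360 genes that average 10 FPKM or more. With 6 libraries from 2 mice such values are high for many genes, and they are given as a description. For B2m these were Kdelr2 (0.991), a receptor that returns proteins to the endoplasmic reticulum, Plin3 (0.990), Lox (0.985), Sypl (0.985) and Prps1 (0.978). Kdelr2 had 51.4 and 37.8 FPKM in WT and MYC DLP and 43.4 and 27.1 FPKM in VP, a smaller difference than that of B2m. For Tap1 they were Isg15 (0.997), a ubiquitin-like protein induced by interferon, Plod3 (0.992), S100a14 (0.991), Arpc3 (0.991) and Plp2 (0.990). For Nlrc5 they were H2-D1 (0.994), H2-Q2 (0.990), Plod3 (0.990), Isg15 (0.989) and Tcirg1 (0.986). Nlrc5 had r = 0.991 with Tap1 and 0.983 with H2-K1, and r = -0.272 with B2m.

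Of 17 other genes of class I loading and peptide supply, none was 2-fold higher in any lobe, beside 2.05%, 6.46% and 6.88% of all genes in AP, DLP and VP. Calr was 2-fold lower in MYC DLP, 1 of 17 beside 3.39% of all genes, and Calr, Pdia3 and the chaperone Hspa5 in VP, 3 of 17 beside 5.95%. Calr had 1166 and 528.2 FPKM in WT and MYC DLP, and 1492 and 691.7 FPKM in VP. Pdia3, which works with calreticulin in the loading complex, had 429.4 and 228.0 FPKM in DLP and 412.1 and 167.7 FPKM in VP. In AP these genes lay near WT, with log2 ratios of -0.26 for Calr and -0.17 for Pdia3, as did B2m. Psme1 and Psme2, the proteasome activator subunits, had log2 ratios of 0.71 and 0.92 in DLP and -0.49 and 0.19 in VP, while the related activator Psme3 had -0.28 in DLP and 0.45 in VP. Tapbpl, a tapasin-related protein that edits bound peptides, had 0.72 in DLP and -0.11 in VP. The aminopeptidase Erap1, which trims peptides in the endoplasmic reticulum, had log2 ratios from 0.13 to 0.22.

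Other genes of the class I family and its relatives, whose products can pair with B2m, numbered 27, of which 19 had a mean of at least 1 FPKM. In AP 13 of the 19 had a log2 ratio above 0, beside 66.4% of all genes. In DLP 17 were above 0, beside 53.5% of all genes, and 5 at least 2-fold higher, H2-Q6, H2-Q7, H2-Q9, H2-K2 and H2-T9, beside 6.46%. In VP 15 were above 0, beside 53.2%, and 1, H2-Q7, was 2-fold higher, beside 6.88%. RefSeq lists H2-K2 as a transcribed pseudogene. H2-T9 is named after its values were seen, since its mean is under 10 FPKM. H2-Q7 had 17.1 and 40.2 FPKM in WT and MYC DLP and 5.68 and 22.4 FPKM in VP, and 13.8% of its 75-base windows occur in other genes, so that its reads and those of its relatives may be mixed. The neonatal Fc receptor Fcgrt went the other way, with 17.5 and 11.9 FPKM in DLP and 7.55 and 3.38 FPKM in VP.

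Of 24 regulators of class I genes and of interferon signalling, 23 had a mean of at least 1 FPKM. Irf9, a subunit of the factor that carries the type I interferon signal, was at least 2-fold higher in MYC in both DLP and VP, with 14.02 and 34.9 FPKM in WT and MYC DLP, 11.8 and 39.0 FPKM in VP, and 20.2 and 23.4 FPKM in AP. Socs3, a feedback inhibitor of cytokine signalling, was the regulator at least 2-fold lower in VP, with 120.3 FPKM in WT and 46.2 FPKM in MYC. Irf1 had 39.0 and 77.2 FPKM in VP, a log2 ratio of 0.97, and 76.6 and 83.6 FPKM in DLP. Rfx5, Rfxap and Rfxank, which bind the X box with Nlrc5, had log2 ratios from -0.67 to 0.48, and Nfya, Nfyb and Nfyc from -0.31 to 0.01.

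Markers of leukocytes, which carry high class I levels, were higher in MYC DLP and VP. Of the 9 members without B2m, all were above 0 on the log2 scale in DLP, beside 53.5% of all genes, and 7 in VP, beside 53.2%, while B2m was below 0 in both lobes. The exceptions in VP were Tapbp and Psmb10, and there the signs of these and of Tap2 depended on the scaling. All 7 leukocyte markers were at least 2-fold higher in MYC DLP and 6 of 7 in MYC VP, Ptprc in VP being short of it at 0.98, and none in MYC AP, beside 6.46%, 6.88% and 2.05% of all genes. Their summed level was 70.2 FPKM in WT DLP and 251.9 in MYC DLP, 24.4 and 113.9 in VP, and 125.3 and 133.8 in AP, and none of the 7 was at 0 in any library. The summed level of 9 macrophage and dendritic markers was 78.0 and 450.0 FPKM in DLP, 49.4 and 314.3 in VP, and 206.7 and 188.3 in AP. Of 8 T and NK cell markers the sum was 18.1 and 62.5 FPKM in DLP, 12.5 and 33.2 in VP, and 15.02 and 18.3 in AP. MHC class II genes, carried mainly by antigen-presenting cells, had a sum of 419.4 and 1593 FPKM in DLP, 197.1 and 393.7 in VP, and 845.8 and 558.6 in AP. The sum of the 9 members without B2m was 851.9 and 1542 FPKM in DLP, 649.3 and 948.2 in VP, and 973.7 and 1124 in AP, so that MYC DLP was the highest library for all of these sums. Their part in the levels of the members was not tested, and in bulk RNA more cells of a type cannot be told apart from more RNA per cell.

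**Figure D5:**
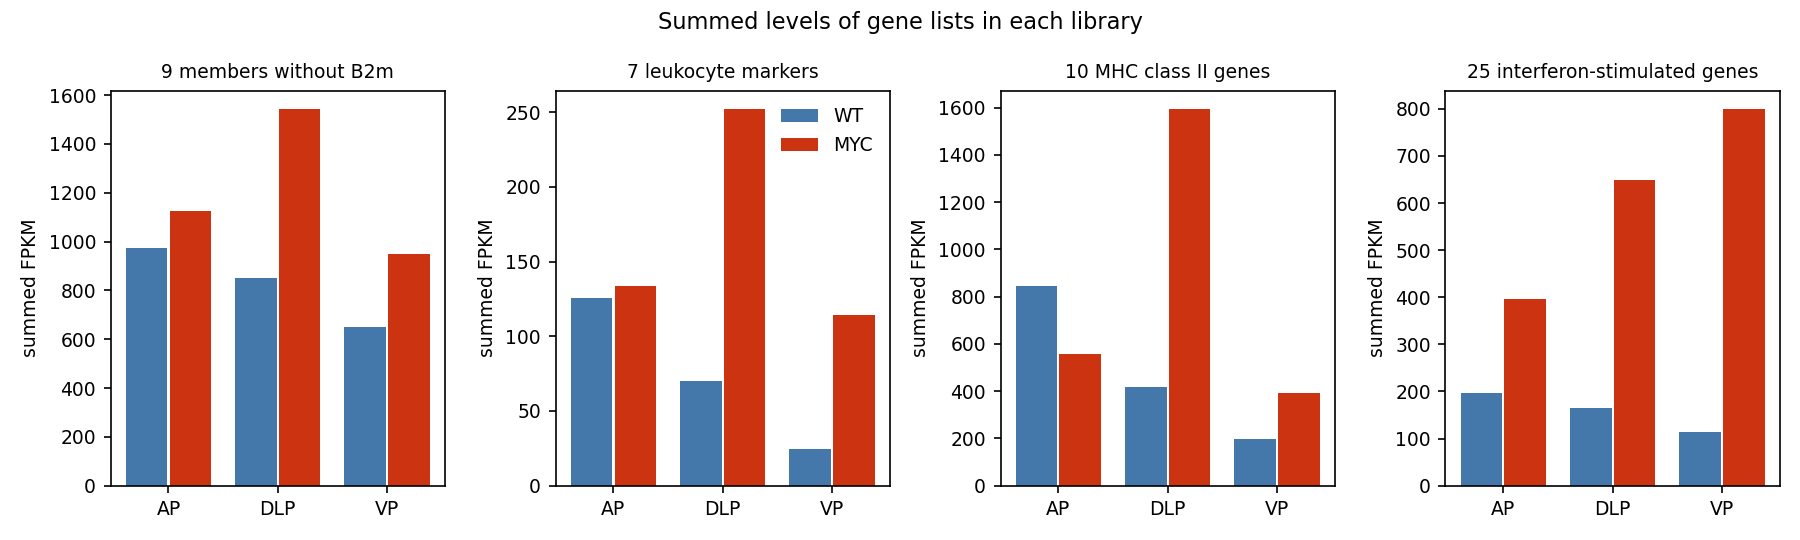
Summed FPKM in each library (blue, WT; red, MYC; bars from 0) of the 9 members without B2m, 7 leukocyte markers, 10 MHC class II genes and 25 interferon-stimulated genes. The first 3 sums are highest in MYC DLP, and the interferon-stimulated sum is highest in MYC VP (799.1 FPKM), where Cxcl10 alone makes up 533.0 FPKM.

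Interferon-stimulated genes were also higher in MYC. Of 25 listed, 21 were at least 2-fold higher in DLP, 18 in VP and 8 in AP, beside 6.46%, 6.88% and 2.05% of all genes. All 25 were above 0 in each lobe, beside 53.5%, 53.2% and 66.4% of all genes. Their sum was 163.9 and 649.5 FPKM in WT and MYC DLP, 114.1 and 799.1 in VP, and 195.7 and 395.7 in AP. A large part of this sum was 1 gene, the chemokine Cxcl10, which gave 533.0 of the 799.1 FPKM in MYC VP and 212.3 of the 649.5 FPKM in MYC DLP. Markers of fibroblasts did not move as 1 group in DLP, where 2 of 6 were at least 2-fold higher (Col1a1 and Col3a1) and 2 lower (Pdgfra and Dcn), beside 6.46% and 3.39% of all genes. In VP 3 of 6 were at least 2-fold lower (Pdgfra, Dcn and Lum), beside 5.95%, and in AP 3 of 6 higher (Col1a1, Col1a2 and Col3a1), beside 2.05%. Their sum, most of it Dcn, was 1284 and 698.5 FPKM in DLP and 648.1 and 194.9 in VP, lower in MYC as B2m was, against 1201 and 1365 in AP. The 5 smooth muscle markers were more even, with every log2 ratio below 0 in DLP and VP (3 and 2 of them at least 2-fold lower, beside 3.39% and 5.95% of all genes) and above 0 in AP. Of all genes, 53.5% were above 0 in DLP, 53.2% in VP and 66.4% in AP. The sum of the smooth muscle markers was 392.1 and 231.2 FPKM in DLP, 345.1 and 212.7 in VP, and 222.0 and 350.4 in AP. The 6 basal markers were all below 0 in VP, where 53.2% of all genes were above 0, with a sum of 720.8 and 473.6 FPKM. Trp63 was at least 2-fold lower there, 1 of 6 beside 5.95% of all genes. In DLP all 6 were above 0, beside 53.5% of all genes, with a sum of 1540 and 2083 FPKM. Krt5 and Trp63 were at least 2-fold higher in DLP, 2 of 6 beside 6.46%. In AP the basal markers were split, with a sum of 2294 and 1235 FPKM. There Krt14 and Krt17 were at least 2-fold lower, 2 of 6 beside 0.599% of all genes, and Trp63 higher, 1 of 6 beside 2.05%. The sum of 6 luminal markers was 1507 and 1567 FPKM in DLP, 3450 and 2838 in VP, and 1482 and 1321 in AP, most of it Krt8, Krt18 and Cd24a. The part of these cell types in the level of B2m was not tested.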

How the data were processed

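Bulk RNA-seq of 6 libraries was analysed, each from 1 lobe of the WT or the MYC mouse. Sample titles gave the groups and matched the column names of the table. Single-end 75 bp reads from stranded poly(A) libraries were mapped by the authors with STAR and quantified per gene with Cufflinks on mm10. The annotation is not given in the sources used here. The authors deposited FPKM, which their methods call read counts, but the values are not whole numbers, so no count model was run. The design had foreseen CPM or FPKM.

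FPKM were used without further scaling. Mapped reads per library (25.5 M to 50.2 M) were recovered from single-exon genes longer than 600 bases and under 0.3 FPKM, with 200 bases taken off each length. Where the steps fitted a depth and its double, the lower was taken. Between 43.1% and 54.4% of these values then lay within 0.05 of a whole read. Reads per gene used mean GENCODE M1 transcript lengths, found for all 10 members. Coordinates and promoters are RefSeq, GRCm38.p6, matched by symbol. The members, the gene lists and the motifs were chosen with earlier results of these data or the sequences known. Named genes were all members, genes of 4 pathway lists with a mean of 10 FPKM past 2-fold, and the 5 genes most like B2m, Tap1 and Nlrc5. Other genes of the lists (Psme1, Psme2, Psme3, Tapbpl, Erap1, Cxcl10, Fcgrt, Irf1, H2-T9, Rfx and Nfy genes, and single markers) were named after their values were seen. The values of some listed genes are not reported here. The 2-fold calls and the recovery of depth were tested on simulated data. Alternatives were 4 other scalings, a pseudocount of 0.1, no filter, a minimum mean of 10 FPKM and a 4-fold threshold. Values were computed in Python 3.11.15 with scipy 1.17.1 for intervals, pandas 2.3.3 and numpy 2.4.6 for tables, and plotted with matplotlib 3.10.9.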

Additional observations from a re-analysis of the deposited data

Results flagged for a closer look

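B2m and Tapbp had ratios of MYC to WT on opposite sides of 1 in different lobes, each outside the counting error of its libraries. The log2 ratio of B2m differed from that in AP by -1.01 in DLP and by -1.39 in VP. The AP value of 0.02 is small and became -0.13 with median-of-ratios size factors, so that the opposite direction in AP depends on the scaling while the difference between lobes is mainly the lower level in DLP and VP. The log2 ratio of Tapbp in VP differed from that in AP by -0.39 and from that in DLP by -0.66, and its sign in VP turned when set against Krt8 and Krt18. These differences between lobes were not tested, as no lobe of either genotype has a second library.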

How the results depend on the processing

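B2m in VP had log2 ratios of -1.48 with median-of-ratios size factors, -1.61 with equal sums of FPKM, -1.64 with equal sums without the 20 highest genes and -1.11 against Krt8 and Krt18. In the same order it had -1.05, -1.04, -1.16 and -1.22 in DLP and -0.13, 0.00, -0.03 and 0.19 in AP. Under each of these 4 scalings 1 member was therefore at least 2-fold lower in DLP, where none was with FPKM as deposited. The number of members at least 2-fold higher in DLP was 2 against Krt8 and Krt18, 1 with a minimum mean of 10 FPKM, which leaves 6 members, and 0 at 4-fold. In VP it was 2 against Krt8 and Krt18, 2 with a pseudocount of 0.1, 0 with a minimum mean of 10 FPKM and 0 at 4-fold, where the number lower was 0. In AP no setting gave a member past the threshold. Against Krt8 and Krt18 the median of all genes went from 0.13, 0.03 and 0.04 to 0.29, -0.20 and 0.30 in AP, DLP and VP, and in VP it was -0.15 with equal sums and -0.18 without the 20 highest genes. The median of the members stayed above 0 throughout, from 0.12 to 0.40 in AP, 0.62 to 0.88 in DLP and 0.14 to 0.67 in VP. Of 27 log2 ratios of the other members, 3 changed sign under at least 1 setting, those of Tap2, Tapbp and Psmb10 in VP. No paired analysis was possible because each group holds 1 library, and no library could be left out for the same reason.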
